A study of Drosophila melanogaster with 64 samples.

Results

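The parovaria, a pair of accessory glands at the base of the female reproductive tract (FRT) of Drosophila melanogaster, were compared 24 h postmating with parovaria of unmated females. All libraries of the parovaria at these time points were included, 4 at 24 h and 4 unmated, among 64 libraries of the whole series. Flies were wild-type females of the LHM strain aged 3 to 8 days, and mated females had copulated 24 h before dissection. Each library was a pool of glands from many females, so differences between females are averaged within a library. Of the 4 libraries in each group, 2 came from each of 2 sequencing runs, and run was fitted as a covariate. The parovaria at 6 h postmating (3 libraries, 1 in run 1), the spermathecae (12 libraries) and the bursa, oviduct and seminal receptacle (30 libraries together) served for comparison.

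The FRT of the fly receives sperm and seminal fluid, stores sperm and passes eggs. Its spermathecae and parovaria are secretory glands built of large gland cells that empty into a cuticle-lined lumen, while the bursa, oviduct and seminal receptacle are largely epithelium wrapped in muscle. Mating is known to change egg laying, receptivity and innate immune gene expression, and antimicrobial peptides, which are made under the control of the Toll and Imd pathways, are a familiar part of that response.

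Levels below are CPM, read counts relative to library size, scaled with the trimmed mean of M-values (TMM-scaled CPM), and differences are log2 fold changes, 24 h minus unmated, with their SE. A gene was called when its Benjamini-Hochberg (BH) adjusted p in edgeR's quasi-likelihood test was at most 0.05. Libraries held 24077199 to 26860149 counts, and 1 transcript, CG42704, took 26.6 to 45.5% of them. Replicate 3 at 24 h had the lowest TMM factor (0.602) and the smallest share of mitochondrial genome counts, 0.306% against 1.94 to 5.47% in the other 7 libraries. Replicate 1 at 24 h favoured long transcripts. Its deviation from the mean of the 8 libraries correlated with exon length across 3839 genes (Spearman's rho 0.792, across genes, which are not independent replicates), while the other 7 libraries had rho between -0.446 and 0.507. What part these properties have in the results was not tested, and counts are therefore also given without these libraries.

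The tissue was that of its label by transcripts of the Acp53 cluster, small secreted proteins first described from male accessory glands. Acp53C14a averaged 645 CPM (without TMM scaling) in parovaria at 24 h and 571 CPM in unmated parovaria, against at most 1.59 CPM in the other unmated tissues. The most abundant transcripts of the unmated gland did not pass the test. CG42704 had TMM-scaled levels of 220154, 227643, 755248 and 472306 at 24 h, against 252742, 214682, 403652 and 436897 in unmated parovaria, and its neighbour on the X chromosome, CG42705, had 90744, 121510, 277165 and 196669 at 24 h, against 111259, 95760, 163847 and 161726. Both varied more between runs than between groups. The log2 fold changes were 0.23 ± 0.21 for CG42704 and 0.29 ± 0.19 for CG42705, and neither passed the test (edgeR, BH-adjusted p = 0.878 and 0.773). CG42780, another abundant transcript, had 20788, 24487, 45285 and 38630 at 24 h, against 20248, 17698, 23393 and 23091 in unmated parovaria (0.55 ± 0.18, BH-adjusted p = 0.312), and CG10469 had 0.38 ± 0.27 (BH-adjusted p = 0.801). The transcription factors Hr39 and lz, which are needed for the development of FRT glands, had log2 fold changes of 0.07 ± 0.43 and -0.10 ± 0.27.

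Few genes of the parovaria were called as different from unmated glands 24 h after mating, and genes that were not called may still differ. Of 7277 genes tested, 10 rose (0.137%) and 9 fell (0.124%), which is 0.261% in all, and 689 genes (9.47%) had an unadjusted p below 0.05. In bulk tissue, fewer cells of a type and less RNA per cell cannot be told apart for any of them. Those that rose encoded antimicrobial proteins, muscle actins, a troponin C, an odorant binding protein and a subunit of the origin recognition complex, and those that fell included a UDP-glycosyltransferase and a carboxylesterase. The median log2 fold change over all genes was 0.0386. All 19 genes moved the same way within both runs, and in 18 of them the groups did not overlap, a property of 2.02% of all genes in the upward and 2.58% in the downward direction. With a Bonferroni-adjusted p of at most 0.01 there were 3 genes (0.0412%), Listericin, Def and Act87E.

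The number of calls depended on single libraries. Without replicate 1 at 24 h there were 35 calls, without replicate 4 at 24 h 11, without unmated replicate 1 10 and without unmated replicate 3 9, and without replicate 3 at 24 h 14. Without the third library at 6 h, which enters only through the shared estimate of the spread, there were 11. None of the 19 called genes changed its direction in any of these fits. When the trend with exon length was removed from each library, a choice made after seeing the data, 35 genes rose and 22 fell, among them all 19.

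**Figure D1:**
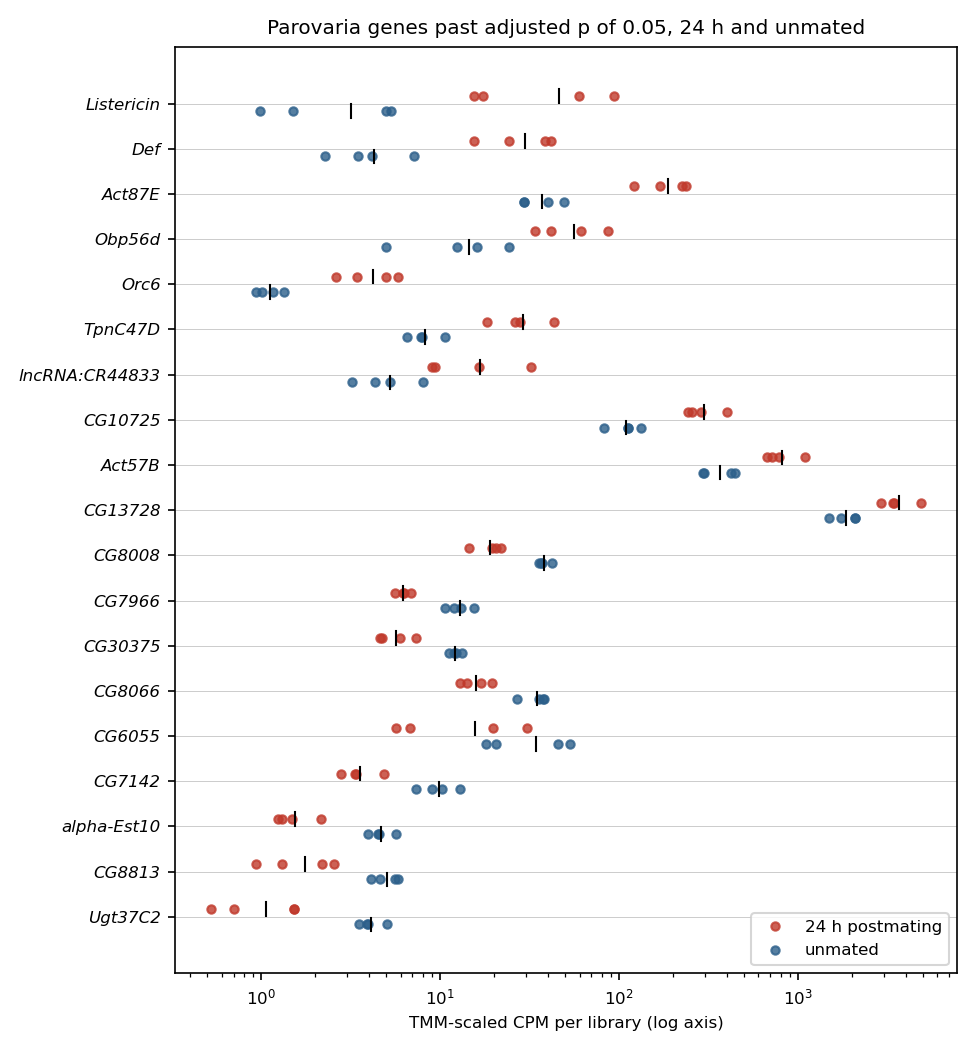
TMM-scaled CPM of the 19 called genes in each of the 4 libraries at 24 h (red, above) and the 4 unmated libraries (blue, below), on a log axis, with black bars at the group means. Genes run from the largest log2 fold change (Listericin, 3.81) to the lowest (Ugt37C2, -2.07), and only CG6055 has overlapping groups.

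The strongest rise was that of Listericin, which encodes a small secreted antibacterial protein (2R, 11241745 to 11242194, minus strand, BDGP6.54 annotation). Its levels were 59.5, 93.0, 17.4 and 15.5 at 24 h, against 5.31, 4.96, 0.982 and 1.51 in unmated parovaria. All 4 mated libraries lay above all unmated ones, and in both groups the run 1 libraries (replicates 1 and 2) were higher than those of run 2. The log2 fold change was 3.81 ± 0.21, or 14.0-fold (edgeR, BH-adjusted p = 2.98e-05), and the difference of mean log2(CPM + 0.5) was 3.73 in run 1 and 3.29 in run 2. It was called without any 1 of the 11 libraries in turn.

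Def encodes Defensin, an antimicrobial peptide known for its action on Gram-positive bacteria (2R, 10054178 to 10054576, minus strand). It had 15.4, 24.2, 38.3 and 41.4 at 24 h, against 3.46, 2.28, 7.10 and 4.16 in unmated parovaria, again with no overlap. The rise was 2.80 ± 0.22, or 6.99-fold (edgeR, BH-adjusted p = 0.000519), and it too was called without any 1 of the 11 libraries. Here run 2 had the higher levels in both groups.

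The other antimicrobial peptides were not called. Of 13 tested, 2 were called higher, against 0.137% of all genes, and none lower. In 10 the log2 fold change was positive, and over all genes 56.5% were positive. The list median was 0.38, but -0.05 without replicate 3 at 24 h, 0.05 without unmated replicate 3, 0.62 without replicate 1 at 24 h and 0.21 without unmated replicate 2, and -0.56 in run 1 alone against 0.95 in run 2 alone. Drosomycin (Drs), the most abundant of them, had 256, 467, 968 and 907 at 24 h, against 964, 617, 830 and 1017 in unmated parovaria (-0.56 ± 0.28, BH-adjusted p = 0.603). Attacin A (AttA) had 8.34, 7.70, 17.03 and 13.0 at 24 h and 11.2, 6.42, 7.15 and 10.7 in unmated parovaria (0.33 ± 0.27), and Cecropin A1 (CecA1) had 0.715, 0.732, 4.07 and 3.73 at 24 h and 0.841, 1.08, 1.65 and 1.69 in unmated parovaria (0.50 ± 0.33). Groups overlapped for each of these peptides. The 12 Bomanins, secreted Toll targets, gave 1 gene with an unadjusted p below 0.05 (BomBc1, 0.71 ± 0.26; 8.33%, against 4.59% of all genes higher) and a median of -0.11. The runs differed, with a median of -0.98 and 5 members lower in run 1 alone and 0.66 and 3 members higher in run 2 alone. Without replicate 3 at 24 h the median was -0.52 with 4 members lower, and it was 0.16 without replicate 1 at 24 h and 0.08 without unmated replicate 1.

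Of the peptidoglycan recognition proteins, which sense bacterial cell walls or break them down, 9 were tested and none was called by edgeR with BH adjustment, with 1 at an unadjusted p below 0.05 in each direction. PGRP-LB, an amidase that dampens Imd signalling, had 24.8, 24.1, 21.9 and 26.0 at 24 h, against 17.4, 15.5, 20.9 and 19.3 in unmated parovaria (0.42 ± 0.16). The 23 genes of Toll and Imd signalling had a median of -0.01, and 2 of them were lower at an unadjusted p below 0.05.

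The change at 24 h of some immune genes, 6 of the 22 antimicrobial peptides and peptidoglycan recognition proteins tested, differed between the parovaria and the muscular, epithelial tissues of the FRT. In an edgeR fit of 6984 genes expressed in all of these tissues, 19 genes (0.272%) differed in their change from the mean change of bursa, oviduct and seminal receptacle, 5 upward and 14 downward, and 478 (6.84%) at an unadjusted p below 0.05. There were 9 calls without replicate 4 at 24 h, 10 without unmated replicate 1 and 12 without unmated replicate 3. Among the downward differences were the cecropins CecA1 (-3.07 ± 0.43) and CecA2 (-2.24 ± 0.35), the attacins AttA (-2.58 ± 0.40) and AttB (-2.49 ± 0.38), and the recognition proteins PGRP-SD (-1.85 ± 0.33) and PGRP-SA (-1.46 ± 0.29). CecA1 had a log2 fold change of 0.51 in parovaria and 3.58 in the other tissues, and AttA had 0.33 and 2.91. BH-adjusted p-values for these 6 genes were between 0.000200 and 0.0139. None of the 6 was called in the comparison with the spermathecae given below. Spermathecae means (CPM without TMM scaling) unmated and at 24 h were 9.5 and 12 for AttA and 12.8 and 12.5 for AttB. They were 1.21 and 1.79 for CecA1 and 0.9955 and 1.15 for CecA2. Small differences in these peptides were thus not found in parovaria alone. Listericin and Def did not pass the test against the epithelial tissues. Their log2 fold changes in the epithelial tissues were 3.85 and 3.79, and the differences were -0.02 ± 0.29 for Listericin (BH-adjusted p = 0.998) and -0.98 ± 0.36 for Def (0.474). Levels were highest in the oviduct, at means of 37.95 CPM (without TMM scaling) unmated and 617 at 24 h for Listericin. Parovaria had 3.72 and 53.1. For Def the oviduct had 924.5 and 7202, against 4.30 and 26.3 in parovaria. The part of neighbouring tissue in the parovaria levels was not tested.

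**Figure D2:**
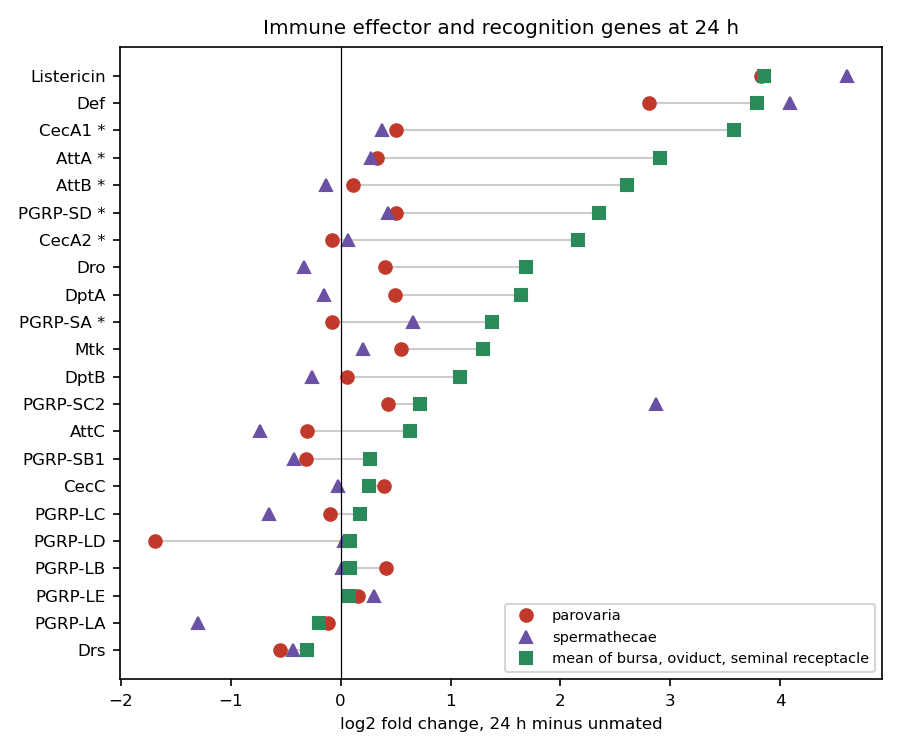
Log2 fold changes at 24 h of the antimicrobial peptides and peptidoglycan recognition proteins tested in all tissues, in parovaria (circles), spermathecae (triangles) and as the mean of bursa, oviduct and seminal receptacle (squares), each fitted with run within tissue. Stars mark a difference between circle and square with an adjusted p of at most 0.05, and all 6 starred genes lie further right in the epithelial tissues, as CecA1 does at 3.58 against 0.51 in parovaria.

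Compared with the spermathecae, the other gland of the FRT, 10 of 7113 genes (0.141%) differed in their change at 24 h. PGRP-SC2, an amidase that degrades peptidoglycan, had the largest difference, with a log2 fold change of 0.42 in parovaria and 2.87 in spermathecae (difference -2.45 ± 0.39, edgeR, BH-adjusted p = 0.0144). In the parovaria its levels were 0.743, 1.34, 1.59 and 2.096 at 24 h, against 1.13, 0.701, 0.893 and 1.42 in unmated females. The P450 Cyp6a23 differed in the same direction (-1.07 ± 0.20, BH-adjusted p = 0.0430).

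All 8 genes with a more positive change in parovaria had negative log2 fold changes in the spermathecae. They included 3 genes of the endoplasmic reticulum, Edem2, which acts in the degradation of misfolded glycoproteins (0.28 in parovaria, -1.02 in spermathecae), the nucleotide-sugar transporter Efr (-0.22 in parovaria, -1.39 in spermathecae), and the cargo receptor Surf4 (0.49 in parovaria, -0.38 in spermathecae). The aldo-keto reductase Akr1B had 0.14 in parovaria and -1.43 in spermathecae, cystathionine beta-synthase (Cbs) 0.11 and -1.36, and CG8925 -0.01 and -1.72. PGRP-LA had -0.13 in parovaria and -1.30 in spermathecae, and lncRNA:CR44366 had 0.59 and -0.59. BH-adjusted p-values of the 8 differences were between 0.00774 and 0.0485. At an unadjusted p below 0.05 there were 422 genes (5.93%). None of the 19 genes called in the parovaria was among the 10, although Orc6, Ugt37C2 and CG8813 were not tested in this fit. Listericin and Def had log2 fold changes of 4.61 and 4.09 in spermathecae, and the differences of -0.80 ± 0.27 and -1.29 ± 0.35 did not pass (BH-adjusted p = 0.440 and 0.260). Without 1 parovaria library the number of calls was 2 (unmated replicate 1) to 14 (24 h replicate 1), and it was 3 without unmated replicate 2 and 5 without unmated replicate 3.

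Of the lists with 8 or more tested genes, muscle markers had the largest share of members higher at 24 h. Act87E, a muscle actin (3R, 13425983 to 13428375, plus strand), had 236, 170, 225 and 122 at 24 h, against 40.2, 49.2, 29.3 and 29.4 in unmated parovaria. Every mated library held more than any unmated one, and the rise of 2.37 ± 0.22, or 5.16-fold (edgeR, BH-adjusted p = 0.00125), was called without any 1 of the 11 libraries. A non-coding gene, lncRNA:CR45591, lies on the other strand, and whether counting used strand is not given in the sources used here.

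Act57B, a second muscle actin (2R, 20944021 to 20946431, plus strand), had 1092, 786, 709 and 672 at 24 h, against 423, 442, 299 and 296 in unmated parovaria. The rise was 1.17 ± 0.14, or 2.24-fold (edgeR, BH-adjusted p = 0.00777). The actin genes are close in sequence, so how reads were shared between Act57B, Act87E and their paralogs is uncertain. TpnC47D, a troponin C that binds calcium in the thin filament, had 18.2, 26.3, 43.4 and 27.8 at 24 h, against 10.6, 7.79, 6.52 and 7.96 in unmated parovaria (1.81 ± 0.30, BH-adjusted p = 0.0395). TpnC47D kept its call in 1 of 11 fits without a library, that without replicate 1 at 24 h.

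Of 22 genes of the muscle list tested, 3 were called, all higher, against 0.137% of all genes. At an unadjusted p below 0.05, 14 were higher (63.6%, against 4.59% of all genes) and none was lower. All 22 had a positive log2 fold change, against 56.5% of all genes, with a median of 0.70. In 11 the groups did not overlap, with 24 h higher, against 2.02% of all genes. Myosin light chain 2 (Mlc2) had 418, 422, 583 and 433 at 24 h, against 269, 236, 252 and 245 in unmated parovaria (0.88 ± 0.15, BH-adjusted p = 0.0518). Tropomyosin 2 (Tm2) had 169, 137, 183 and 166 at 24 h, against 106, 103, 96.6 and 98.6 (0.69 ± 0.14, BH-adjusted p = 0.0777). Muscle myosin heavy chain (Mhc) had 289, 171, 140 and 166 at 24 h and 124, 135, 141 and 132 in unmated parovaria, with overlap (0.49 ± 0.20), and the giant filament protein gene sls had 0.43 ± 0.31. The median of the list was 0.42 without replicate 1 at 24 h and 0.63 without replicate 3 at 24 h, with 3 calls in each.

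**Figure D3:**
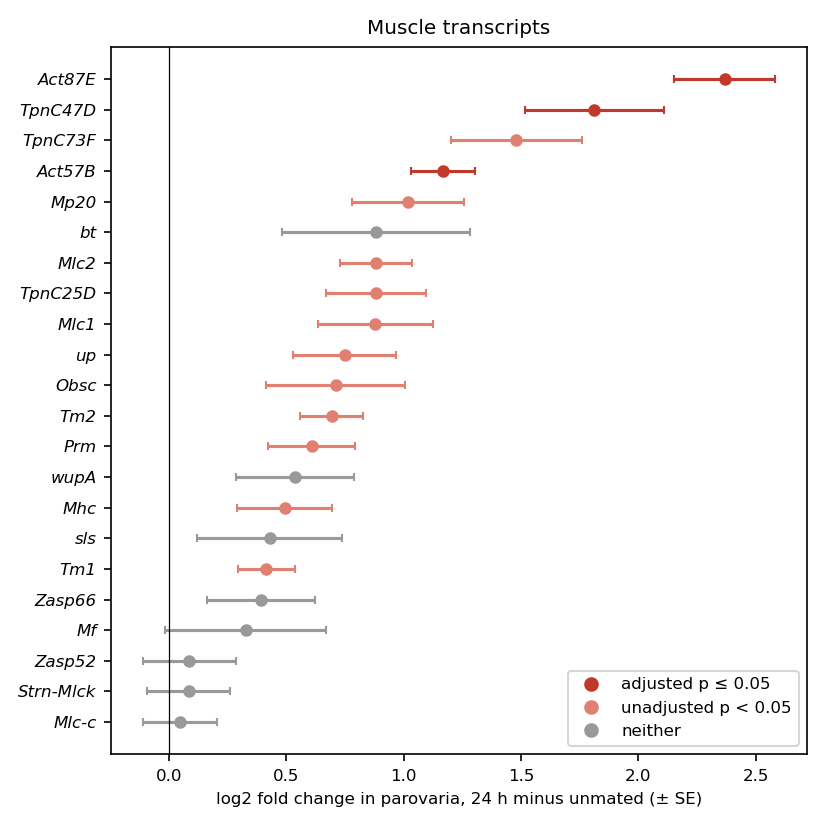
Log2 fold changes in parovaria, 24 h minus unmated, with their SE, for the 22 genes of the muscle list tested. All points lie right of 0, from Act87E at 2.37 to Mlc-c at 0.05, and 3 genes pass an adjusted p of 0.05.

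The summed level of the muscle list was 3914, 2887, 4022 and 3150 TMM-scaled CPM at 24 h, against 2061, 2110, 1913 and 1955 in unmated parovaria. It was far higher in the muscle-bearing tissues next to the glands, at a mean of 46730 CPM (without TMM scaling) in the unmated bursa and 32630 in the unmated oviduct, against 2158 in unmated parovaria. Spermathecae also had a higher muscle sum at 24 h, with means of 1796 unmated and 3643 at 24 h, against 2158 and 3407 in parovaria. There the log2 fold changes were 2.185 for Act87E, 1.78 for Act57B and 2.04 for TpnC47D, and none of these differed by call from parovaria. The part of neighbouring muscle in the higher levels at 24 h was not tested. Act87E and Act57B had log2 fold changes of 2.37 and 1.16 in parovaria and a mean of 2.0996 and 1.0019 in the epithelial tissues, and the differences of 0.27 ± 0.21 and 0.16 ± 0.21 did not pass the test (BH-adjusted p = 0.911 and 0.955).

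Sums of other cell type markers overlapped between the groups. Fat body markers summed to 9952 to 27340 TMM-scaled CPM at 24 h and 17630 to 24930 in unmated parovaria, haemocyte markers to 155 to 280 and 188 to 223, and neuron and glia markers to 98.1 to 186 and 125 to 164. Male accessory gland markers summed to 8.83 to 18.6 at 24 h and 12.2 to 20.8 in unmated parovaria, with 18 of 26 at 0 in all 8 libraries. Sperm and testis markers summed to 17.3 to 20.0 at 24 h and 19.0 to 20.4 in unmated parovaria, with 12 of 23 at 0. Of 12 fat body genes tested, 3 were lower at an unadjusted p below 0.05 (25%, against 4.88% of all genes), among them Lsp2, a larval serum protein, with 5.36, 19.9, 61.2 and 68.9 at 24 h, against 100, 114, 97.9 and 96.0 in unmated parovaria (-2.07 ± 0.70, BH-adjusted p = 0.338).

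Among the odorant binding proteins, small secreted carriers of hydrophobic ligands, 1 of 9 tested was called higher (0.137% of all genes) and 5 were higher at an unadjusted p below 0.05 (55.6%, against 4.59% of all genes). Obp56d had 61.2, 86.0, 41.5 and 33.7 at 24 h, against 24.1, 16.1, 4.96 and 12.5 in unmated parovaria. The groups did not overlap, and the rise was 1.99 ± 0.29, or 3.97-fold (edgeR, BH-adjusted p = 0.0286), called in 6 of 11 fits without a library. Obp56a had 26.9, 42.5, 10.1 and 6.75 at 24 h, against 9.03, 7.27, 0.625 and 3.66 (2.04 ± 0.44, BH-adjusted p = 0.110), and Obp57c had 1.04 ± 0.22 (0.109). Obp99a had 9.82, 40.1, 99.6 and 54.8 at 24 h, against 143, 112, 128 and 98.5 in unmated parovaria (-1.53 ± 0.51, BH-adjusted p = 0.334).

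The remaining genes that rose were of mixed roles. Orc6, a subunit of the origin recognition complex that marks the start of DNA replication, was low, at 2.61, 3.44, 4.96 and 5.83 at 24 h, against 0.938, 1.17, 1.34 and 1.01 in unmated parovaria (1.84 ± 0.23, BH-adjusted p = 0.00872). It overlaps Sting on the other strand, which had a log2 fold change of -0.07 ± 0.13. CG10725 had 242, 255, 285 and 402 at 24 h, against 112, 82.6, 112 and 132 in unmated parovaria (1.42 ± 0.16, BH-adjusted p = 0.00591).

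CG13728, the most abundant of the called genes, had 3424, 2895, 3401 and 4883 at 24 h, against 1480, 1743, 2084 and 2089 (0.98 ± 0.16, BH-adjusted p = 0.0393). It was called in 2 of 11 fits without a library. The non-coding lncRNA:CR44833, on the strand opposite ovo, had 9.02, 9.33, 32.3 and 16.5 at 24 h and 4.34, 3.21, 8.04 and 5.26 in unmated parovaria (1.58 ± 0.25, BH-adjusted p = 0.0331), called in 3 of 11 fits without a library, and ovo had 0.35 ± 0.51.

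Genes that fell had mean levels of at most 37.9 TMM-scaled CPM in unmated parovaria (CG8008). Ugt37C2, a UDP-glycosyltransferase of the family that conjugates small molecules (2L, 16794211 to 16796009, plus strand), had 0.523, 0.700, 1.52 and 1.53 at 24 h, against 3.88, 3.53, 3.93 and 5.03 in unmated parovaria. The level fell by 2.07 ± 0.26 on the log2 scale (edgeR, BH-adjusted p = 0.00866), and it was called without any 1 of the 11 libraries. CG7142 had 3.33, 2.80, 4.83 and 3.37 at 24 h, against 7.28, 8.99, 10.3 and 12.9 (-1.45 ± 0.18, BH-adjusted p = 0.00866), and CG8813 had 0.935, 1.31, 2.55 and 2.20, against 4.11, 4.61, 5.81 and 5.58 in unmated parovaria (-1.61 ± 0.20, BH-adjusted p = 0.00866). These were also called without any 1 library.

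The carboxylesterase alpha-Est10 had 2.15, 1.31, 1.24 and 1.48 at 24 h, against 4.47, 4.55, 3.93 and 5.63 in unmated parovaria (-1.58 ± 0.22, BH-adjusted p = 0.0206). CG6055 had 19.6, 30.4, 5.65 and 6.80 at 24 h, against 53.0, 45.7, 18.0 and 20.6. Its groups overlap across runs and not within them (-1.29 ± 0.19, BH-adjusted p = 0.0287). Without 1 library, alpha-Est10 was called in 6 of 11 fits and CG6055 in 4. The 4 other genes, CG7966, CG30375, CG8008 and CG8066, had log2 fold changes between -1.12 and -0.998 with BH-adjusted p-values between 0.0307 and 0.0398, and each was called in 2 or 3 of 11 fits without a library.

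Serine proteases that mark the secretory cells of the spermathecae were also present in the parovaria at lower levels. Send1, for spermathecal endopeptidase, had 153, 378, 478 and 519 at 24 h, against 1351, 808, 1061 and 1062 in unmated parovaria. All mated libraries were below all unmated ones, and the log2 fold change of -1.54 ± 0.31 did not pass the test (edgeR, BH-adjusted p = 0.0904), while it did with the exon length trend removed (-1.61 ± 0.23, BH-adjusted p = 0.0117). Spermathecae held a mean of 54690 CPM of Send1 (without TMM scaling) unmated and 20450 at 24 h, against 1135 and 338 CPM in parovaria. Means were also lower at 24 h than unmated in bursa (144 and 587), oviduct (260 and 939), seminal receptacle (609 and 1861) and fat body (216 and 691). Send2 had 0.62 ± 0.20 (BH-adjusted p = 0.313). The share of these transcripts that came from the neighbouring spermathecae was not tested.

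The libraries at 6 h place the 24 h glands on a time course. At 24 h against 6 h, 41 genes were called (0.563%), 6 higher (0.0825%) and 35 lower (0.481%), and at 6 h against unmated parovaria 51 were higher (0.701%) and 10 lower (0.137%). These comparisons share libraries, so their values are given side by side. The libraries at 6 h favoured short transcripts. Their deviations from the mean of the unmated and 24 h libraries correlated with exon length at Spearman's rho of -0.450, -0.644 and -0.646. With the exon length trend removed, 87 genes were called at 24 h against 6 h, 30 higher and 57 lower. The part of transcript length in single calls was not tested. Of the 51 genes called higher at 6 h, 27 were called lower at 24 h than at 6 h and 4 were called higher at 24 h than in unmated parovaria. The 35, 51 and 27 each include both BaraA1 and FBgn0283462, which had identical levels in every parovaria library.

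Send2 had 24.4, 20.5, 41.0 and 41.0 in unmated parovaria, 1043, 1043 and 849 at 6 h, and 35.8, 35.9, 67.4 and 55.2 at 24 h. The 24 h level was lower than that at 6 h by a log2 difference of -4.32 (edgeR, BH-adjusted p = 2.44e-05). The protease CG17234 had 34.9, 28.9, 78.9 and 65.7 in unmated parovaria, 573, 832 and 551 at 6 h, and 40.6, 26.995, 95.6 and 60.1 at 24 h (-3.54, BH-adjusted p = 0.000508). Both proteases had far higher levels and the same 6 h peak in spermathecae. Means there (CPM without TMM scaling; unmated, 6 h, 24 h) were 1209, 37700 and 1768 for Send2 and 1671, 20360 and 1238 for CG17234. Parovaria had 32.3, 1041 and 43.8 for Send2 and 52.2, 675 and 48.0 for CG17234. The share of either transcript that came from the spermathecae was not tested. Juvenile hormone acid methyltransferase (jhamt), an enzyme of juvenile hormone synthesis, had 1.46, 1.08, 3.48 and 4.48 in unmated parovaria, 18.7, 27.7 and 27.4 at 6 h, and 1.07, 1.18, 4.48 and 2.66 at 24 h (-3.41, BH-adjusted p = 0.000508). It too had a 6 h peak at far higher levels in other tissues. Means on the same scale and in the same order were 249.5, 1210 and 119.8 in bursa, 160, 1154 and 102 in oviduct, and 287, 1804 and 141 in seminal receptacle. Parovaria had 2.57, 24.8 and 1.91. The share of jhamt that came from these tissues was not tested.

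Juvenile hormone esterase (Jhe), which breaks the hormone down, the small heat shock protein gene l(2)efl and PGRP-SC2 were also lower at 24 h than at 6 h, with log2 differences of -1.59, -2.36 and -2.78. Against unmated parovaria their log2 fold changes at 24 h were 0.66 ± 0.18, 0.86 ± 0.22 and 0.42 ± 0.28. None of these was called, although the groups did not overlap for l(2)efl. AttA (-1.81), AttB (-1.85), CecA1 (-1.79) and CecA2 (-1.92) were likewise lower at 24 h than at 6 h. Listericin and Def were not called in this comparison. Listericin had 93.3, 27.7 and 20.7 at 6 h and a difference of -0.45 ± 0.20 (BH-adjusted p = 0.288), and Def had 14.7, 30.0 and 31.4 at 6 h and a difference of 0.40 ± 0.23 (BH-adjusted p = 0.357).

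Act87E had 116, 104 and 94.9 at 6 h, between the unmated and 24 h levels, with a difference at 24 h against 6 h of 0.78 ± 0.23 that was not called (BH-adjusted p = 0.191). Genes higher at 24 h than at 6 h included Orc6 (1.76), lncRNA:CR44833 (1.70) and trehalase (Treh, 1.26), the enzyme that splits the blood sugar trehalose. The count of calls between 24 h and 6 h rested on single libraries, with 593 calls without replicate 2 at 24 h, 17 without replicate 4 at 24 h, 27 without unmated replicate 1, 25 without unmated replicate 4 and 7, 14 and 22 without each of the 6 h libraries.

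**Figure D4:**
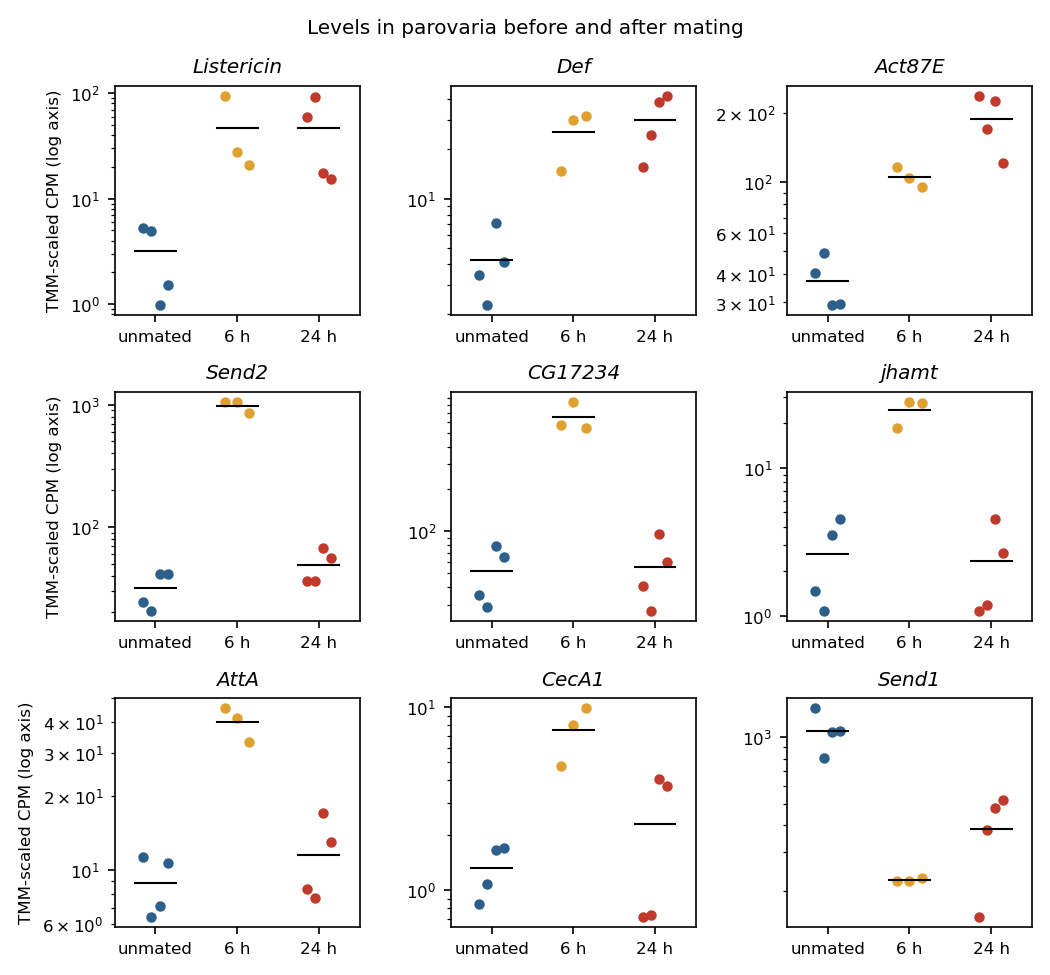
TMM-scaled CPM (log axes, each with its own range) of 9 genes in unmated parovaria (4 libraries), at 6 h (3 libraries) and at 24 h (4 libraries), with bars at the group means. Listericin, Def and Act87E remain above unmated levels at 24 h, while Send2, CG17234, jhamt, AttA and CecA1 lie above both other groups at 6 h, as Send2 does at 849 to 1043.

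Genes of the secretory pathway, which carry proteins through the endoplasmic reticulum and Golgi, were tested as 42 members. None was called by edgeR with BH adjustment, 9 were higher and none lower at an unadjusted p below 0.05 (21.4%, against 4.59% of all genes), and 40 had a positive log2 fold change, with a median of 0.30. The SNARE Sec22 had 132, 116, 164 and 174 at 24 h, against 103, 99.6, 100 and 115.4 in unmated parovaria (0.47 ± 0.13, BH-adjusted p = 0.241), and the cargo receptor p24-1 had 169, 224, 256 and 244, against 168, 155, 158 and 162 (0.47 ± 0.16). Without replicate 1 at 24 h 19 members were higher at an unadjusted p below 0.05, while 4 were without replicate 2 at 24 h, replicate 4 at 24 h or unmated replicate 4, 3 without unmated replicate 3, 2 without unmated replicate 2 and 6 without replicate 3 at 24 h. Of 22 genes of protein folding in the endoplasmic reticulum, none was called, 5 were higher and none lower at that p, and the median was 0.18. This count was 1 without replicate 4 at 24 h, 3 without replicate 2 at 24 h or unmated replicates 1 or 2, and 8 without replicate 3 at 24 h. P58IPK, a co-chaperone of the unfolded protein response, had 164, 166, 154 and 198 at 24 h, against 127, 119, 137 and 140 in unmated parovaria (0.38 ± 0.12).

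In the lists of cytochromes P450, glutathione S-transferases, fatty acid and sterol metabolism, and glycolysis and the TCA cycle, no member was called by edgeR with BH adjustment. Ugt37C2 and alpha-Est10, given above, are in none of these lists. Of 23 glutathione S-transferases, which conjugate small molecules to glutathione, 3 were higher and 3 lower at an unadjusted p below 0.05, or 6 and 2 without replicate 1 at 24 h. Of 54 cytochromes P450, 12 had lower levels with no overlap between groups, against 2.58% of all genes. At an unadjusted p below 0.05, 14 were lower (25.9%, against 4.88% of all genes) and 2 higher. Without unmated replicate 2 the count lower was 9. The ecdysteroid hydroxylase Cyp18a1 had 1.21, 1.59, 2.00 and 1.58 at 24 h, against 5.63, 5.20, 3.35 and 3.16 in unmated parovaria (-1.48 ± 0.37, BH-adjusted p = 0.175), and Cyp6a9 had 40.1, 39.5, 38.7 and 36.1, against 53.7, 53.0, 51.2 and 57.0 (-0.48 ± 0.13). Of 22 genes of fatty acid and sterol metabolism 6 were lower at that p, or 3 without unmated replicate 2 or unmated replicate 3, and the median was -0.24. The fatty acid desaturase Desat1 had 537, 482, 538 and 692 at 24 h, against 1144, 1201, 991 and 889 in unmated parovaria (-0.93 ± 0.23, BH-adjusted p = 0.166). Fatty acid synthase 1 (FASN1), which the fat body marker list also holds, had -0.42 ± 0.16. Of 23 genes of glycolysis and the TCA cycle 5 were lower, or 10 without replicate 2 at 24 h, among them phosphoglucose isomerase (Pgi, -0.52 ± 0.15) and the hexokinase Hex-C (-1.11 ± 0.34).

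**Figure D5:**
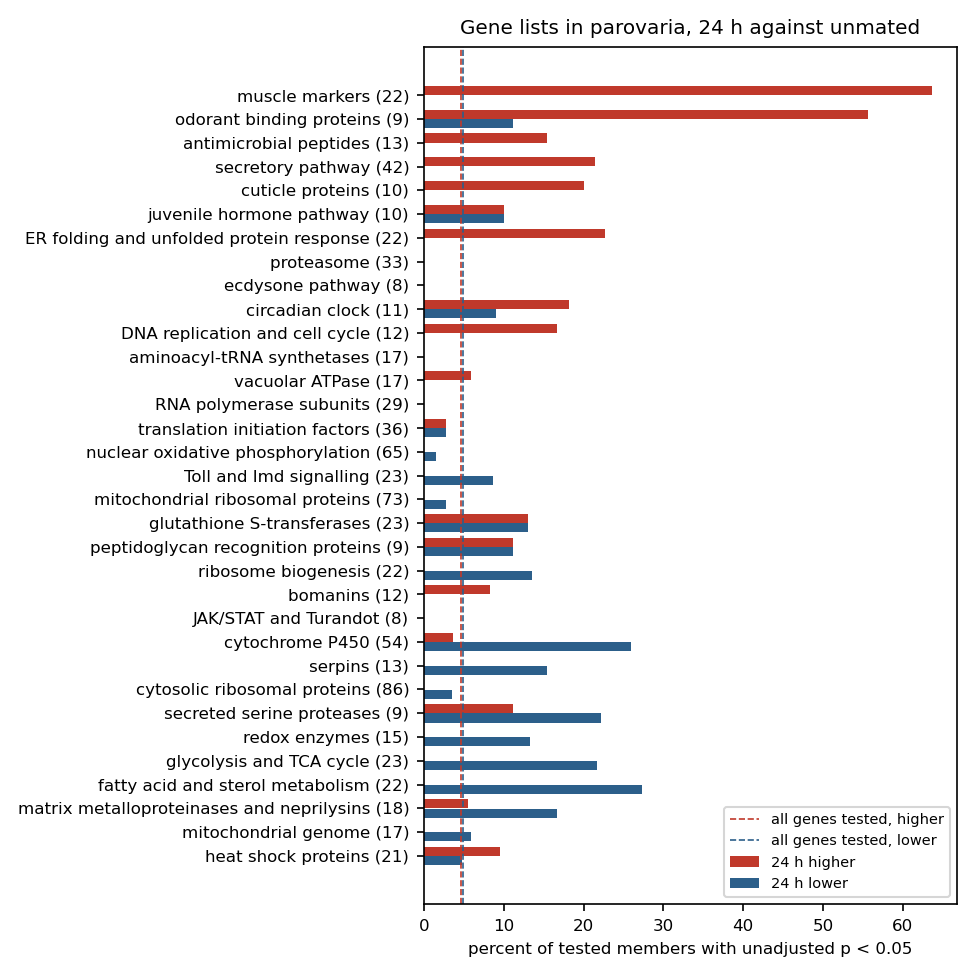
Percent of the tested members of each gene list with 8 or more tested genes (cell type marker lists other than muscle left out) with an unadjusted p below 0.05, higher (red, above) or lower (blue, below) at 24 h than in unmated parovaria, with list sizes in parentheses and lists in order of median log2 fold change. Dashed lines give the same shares over all 7277 genes (4.59% higher and 4.88% lower), and muscle markers reach 63.6% higher.

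In the other lists no member was called by edgeR with BH adjustment, and the counts below are at an unadjusted p below 0.05. Of 9 secreted serine proteases 1 was higher and 2 lower, or 1 and 1 without any 1 of 5 libraries (replicates 1 and 4 at 24 h and unmated replicates 1, 2 and 3), and 1 was called lower without replicate 1 at 24 h. Of 18 matrix metalloproteinases and neprilysins, which cut extracellular proteins and peptides, 1 was higher and 3 lower, although 6 were lower without replicate 3 at 24 h, 5 without unmated replicate 4, and 1 without replicate 1 at 24 h or unmated replicates 1 or 2. Higher were 2 of 10 cuticle proteins and 2 of 12 genes of DNA replication and the cell cycle, with none lower, and lower were 2 of 13 serpins, 2 of 15 redox enzymes and 3 of 22 genes of ribosome biogenesis, with none higher. Leaving out 1 unmated or 24 h library moved these counts to between 1 and 3 for cuticle proteins, 0 and 3 for serpins, 0 and 3 for redox enzymes and 1 and 6 for ribosome biogenesis. For DNA replication 0 to 3 were higher, and without replicate 1 at 24 h none was higher and 2 were lower. Of 86 cytosolic ribosomal proteins 3 were lower and none higher (median -0.17), although 25 were lower with the exon length trend removed. Of 73 mitochondrial ribosomal proteins 2 were lower, of 65 nuclear genes of oxidative phosphorylation 1 was lower, and none of 33 proteasome genes passed in either direction. Of 21 heat shock genes 2 were higher and 1 lower, with a median of -0.67 that turned to 0.80 in run 1 alone (-1.98 in run 2 alone), to 0.49 with the replicate number as a block and to 0.96 without unmated replicate 3. The 17 transcripts of the mitochondrial genome had a median of -0.62, with summed levels of 36190, 16550, 5079 and 63310 at 24 h, against 46730, 37040, 51020 and 50590 in unmated parovaria. Replicate 3 at 24 h is the lowest of these.

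Of 11 clock genes 2 were higher and 1 lower at an unadjusted p below 0.05, 1 higher and 3 lower without replicate 1 at 24 h, and 1 in each direction without replicate 4 at 24 h or any 1 unmated library. The clock gene period (per) had 16.3, 13.3, 9.79 and 14.9 at 24 h, against 19.6, 22.8, 22.4 and 22.9 in unmated parovaria (-0.69 ± 0.18, BH-adjusted p = 0.175), and cryptochrome (cry) had 127, 233, 109 and 129, against 98.1, 87.6, 84.7 and 106 (0.63 ± 0.21, BH-adjusted p = 0.334). The sex peptide receptor gene SPR had 30.1, 14.8, 25.9 and 27.4 at 24 h and 22.7, 22.4, 24.8 and 27.4 in unmated parovaria, a log2 fold change of 0.01 ± 0.23. Its groups overlapped throughout.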

How the data were processed

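RNA of pooled, dissected parovaria was sequenced as short single-end reads. Per the study's methods and the submitters' processing notes, HISAT2 2.1.0 did the alignment for the authors and StringTie the quantification of genes. A single deposited table covered 17752 genes and 64 libraries. Its name says CPM, but the deposited values were whole counts per gene with unequal totals, not normalized by the authors, and were taken as raw counts. In all, 17624 identifiers (99.28%) matched a symbol. The study used BDGP release 6, and positions are from the BDGP6.54 annotation. Replicate names tied 14 columns to a group only, including the 3 parovaria libraries at 6 h.

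Genes over 2 CPM in at least 2 libraries of a parovaria time point (7277) were fitted over 11 parovaria libraries with edgeR 4.0.16 (R 4.3.3; TMM, glmQLFit, two-sided quasi-likelihood test, run as covariate), and p-values were adjusted over all of them. Interaction contrasts set parovaria against other tissues with run within tissue. The biological coefficient of variation was 0.290. The fits were tested on simulated data, with 100 well-counted genes changed 2-fold and 100 changed 4-fold. Simulated spread followed abundance alone, with no run effect, no spread particular to a gene and no length bias of a library. Recovery in the real data may therefore differ. The tests against unmated parovaria, spermathecae and epithelial tissues recovered 49%, 17% and 31% of the 2-fold changes. They recovered 100%, 91% and 96% of the 4-fold changes, with 8, 8 and 4 false calls beside both sizes together. Where nothing says that pools came from separate cohorts, p-values measure only the spread between libraries.

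Members and gene lists were chosen with earlier results of these data known. Named genes were the 12 largest rises and falls and the 5 smallest p-values in each direction among called genes, the largest ones also with a mean of at least 5 CPM in the higher group and no overlap, the 5 most abundant transcripts, called list members, members of lists of up to 15 genes, and the largest differences from the spermathecae. Other genes were named after their values were seen. Alternatives used DESeq2 1.42.0, other scalings and filters, single runs, a replicate block and omission of each library. Figures were drawn with Python 3.11.15 and matplotlib 3.10.9.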

Additional observations from a re-analysis of the deposited data

Results flagged for a closer look

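Of 128 sets of 4 libraries examined, for summed list levels and called genes, 3 had 1 library far from the other 3, and chance alone gives about 1 in 20 such groups. The summed level of Toll and Imd signalling genes was 419 TMM-scaled CPM in unmated replicate 1, the lowest of its group, that of germline and eggshell markers was 43.3 in unmated replicate 1, and that of sperm and testis markers was 17.3 in replicate 3 at 24 h.

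The change at 24 h differed between the parovaria and the spermathecae in 10 genes, by the test of the difference itself (edgeR, BH-adjusted p at most 0.05). The log2 differences, parovaria minus spermathecae, were 1.30 for Edem2, 1.57 for Akr1B, 1.17 for PGRP-LA, 1.17 for Efr, 1.18 for lncRNA:CR44366, 1.71 for CG8925, 0.865 for Surf4, 1.47 for Cbs, -2.45 for PGRP-SC2 and -1.07 for Cyp6a23.

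Against the mean of bursa, oviduct and seminal receptacle the change differed in 19 genes by the same kind of test. Upward differences were 1.24 for wbl, which encodes an endoplasmic reticulum protein, 0.925 for CG17027, 0.956 for Treh, 0.741 for CG7872 and 1.10 for beta-Man, a mannosidase. Downward differences were -2.62 for CG4269, -3.07 for CecA1, -2.49 for AttB, -2.58 for AttA, -2.24 for CecA2, -1.85 for PGRP-SD, -1.46 for PGRP-SA, -1.46 for CG15210, -1.07 for the serpin Spn27A, -0.621 for SelR and -0.520 for Cyp6a9. CG6891 had -1.34 and CR6900 -1.31. The difference of -6.35 for mt:ATPase6 came with levels of 1.51, 2.61, 0.827 and 3.32 at 24 h, against 130, 1.43, 71.9 and 185 in unmated parovaria, so that unmated libraries themselves differed widely.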

How the results depend on the processing

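No called gene reversed its direction in any alternative, and Listericin and Act87E were called in 22 and Def in 21 of 24. Against the 19 genes called at 24 h against unmated parovaria (3 by Bonferroni), there were 1 and 1 without run in the model, 4 and 1 with the 8 libraries only, 0 and 0 in run 1 alone (edgeR, 389 at an unadjusted p below 0.05), 20 and 1 in run 2 alone, and 167 (80 higher, 87 lower) and 40 with DESeq2. Removing the exon length trend gave 57 and 4. Leaving out 1 library gave 9 to 35 and 2 to 4. For 24 h against 6 h (41 calls), there were 19 without run, 0 in run 1 alone (155 at an unadjusted p below 0.05), 9 in run 2 alone, 26 with over 5 CPM in at least 4 libraries, 274 with DESeq2, 87 with the length trend removed and 7 to 593 without 1 library. The 10 differences from the spermathecae became 6 without run, 3 with all genes and 2 to 14 without 1 library, and the 19 from the epithelial tissues became 7 without run and 9 to 21 without 1 library. With the replicate number as a block there was 1 call (0 by Bonferroni, 350 at an unadjusted p below 0.05). The labels do not say whether same-numbered libraries share a collection. Their deviations from the group means correlated at -0.232, -0.242, 0.0872 and 0.291, which cannot settle it, as replicate numbers were nested in runs. The cause of these shifts was not tested. The length trend, the omission of 6 h libraries and 2 other edgeR settings (24 and 22 calls) were chosen after seeing the data.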

Other observations

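The levels of some transcripts differed widely between the sequencing runs. Cyp4g1, a P450 of the hydrocarbon-producing oenocytes, had 75.2, 50.9, 0.345 and 0.920 TMM-scaled CPM at 24 h (replicates 1 and 2 from run 1), against 6.18, 9.93, 0.179 and 0.595 in unmated parovaria, a log2 fold change of 2.32 ± 0.74 (edgeR, BH-adjusted p = 0.312). The digestive protease Jon99Ciii had 1.98, 3.12, 0.0689 and 0.153 at 24 h, against 0.162, 0.0584, 0 and 0.0915 in unmated parovaria (BH-adjusted p = 0.0502).

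CG33995 had 9.85, 5.44, 10.5 and 18.2 TMM-scaled CPM at 24 h and was at 0 in all 4 unmated libraries, and at 6 h it had 0, 4.61 and 8.69 (24 h against unmated, edgeR, BH-adjusted p = 0.0775). It overlaps CG44000 and CG44001 on its own strand, so reads can be assigned to any of them, and CG44000 had 25.6, 13.1, 14.1 and 17.6 at 24 h, against 5.08, 5.05, 7.99 and 8.55 in unmated parovaria (1.46 ± 0.31, BH-adjusted p = 0.108).

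The glycoside hydrolase gene tobi had 3.49, 8.12, 39.4 and 19.4 TMM-scaled CPM at 24 h, against 187, 243, 155 and 111 in unmated parovaria, with no overlap (-3.86 ± 0.69, BH-adjusted p = 0.0566). Enolase (Eno) had 24.7, 27.2, 24.3 and 203 at 24 h, against 36.6, 31.6, 34.3 and 32.3 in unmated parovaria, so that 1 library carried its log2 fold change of 0.78 ± 0.61.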
